A study of Fragaria hybrid cultivar with 9 samples.

Results

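The miR390 family was examined in petals of the pink-flowered strawberry 'Sijihong', a cultivar derived from a cross between Fragaria and Potentilla. Its members were all entries of the small RNA table whose name holds miR390 or MIR390 with no further digit, each sequence counted once, which gave 5 of the 1660 distinct sequences. Small RNA libraries were made from petals at PF_L (young bud), PF_Z (beginning of coloration) and PF_D (big bud), with 3 biological replicates per stage. All 9 libraries came from this 1 cultivar, grown in the open ground with no treatment, so the stages differ in age and color together. The sources used here do not say whether a replicate pooled several plants. Levels are normalized reads, the values the authors scaled by 1 factor per library, and reads were recovered from them. A library held 751798 to 1239877 recovered reads over distinct sequences, and 1 read was worth 0.713 to 1.27 normalized reads. All 45 values of the family came out as whole reads within 0.01 read. The table lists miRNAs only, so the petal label was not checked against marker genes.

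miR390 is one of the most conserved plant microRNAs and begins with an A. It is cut from a hairpin whose 5p arm carries the guide strand and whose 3p arm carries the partner strand, often called miR390*. In Arabidopsis the guide is loaded into ARGONAUTE7 and directs it to the non-coding TAS3 transcripts, which are then turned into trans-acting small RNAs (tasiARFs) that repress a group of auxin response factors. This pathway is known for its part in leaf polarity, phase change and lateral organ development.

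The sequences are printed 5′ to 3′ in the DNA letters of the table, since the results turn on which arm each one belongs to. Capitals mark bases 2 to 8, the seed.
mdm-miR390a: aAGCTCAGgagggatagcgcc
ath-miR390a-5p_L+3: aTCAAGCTcaggagggatagcgcc
csi-miR390a-3p_2ss15AG21AC: cGCTATCCatcctgggtttcc
ppe-MIR390-p3_1ss15AG: cGCTATCTatcctgggtttca
hex-MIR390b-p3_2ss4GC21GT: tAACAAGAataagctcaggat

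The first 2 sequences belong to the 5p arm. mdm-miR390a is the 21-nt guide, and ath-miR390a-5p_L+3 is a 24-nt form that holds the whole guide from base 4 to base 24 behind 3 extra bases, so their seeds differ. The next 2 are 21-nt 3p sequences that differ from each other by C8T and C21A, counted from the 5′ end of csi-miR390a-3p_2ss15AG21AC. In a predicted duplex with mdm-miR390a each of them formed 18 base pairs and left 1 base unpaired at either 3′ end. The fifth sequence went against its name. hex-MIR390b-p3_2ss4GC21GT is named for the 3p side, but it formed only 5 pairs with mdm-miR390a, and its bases 11 to 20 are identical to bases 1 to 10 of the guide. In the next line capitals mark that shared stretch.
hex-MIR390b-p3_2ss4GC21GT: taacaagaatAAGCTCAGGAt
The totals, shares and ratios of the 3p arm are therefore given with this sequence, as the name has it, and without it.

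The guide fell during petal development while its partner strand rose. mdm-miR390a had 20189 ± 1641 normalized reads at PF_L, 10308 ± 1976 at PF_Z and 3190.0 ± 1037 at PF_D (SD, n = 3 each), while csi-miR390a-3p_2ss15AG21AC had 626 ± 179 in PF_L petals, 979 ± 318 at PF_Z and 1682 ± 221 at PF_D. Between PF_D and PF_L, 3 of the 5 sequences passed the test, 2 lower and 1 higher in PF_D, where 16.3% of all 1554 miRNAs tested passed it, 8.17% lower and 8.11% higher. Between PF_D and PF_Z 1 of the 5 passed, against 3.67% of all miRNAs. Between PF_Z and PF_L none passed in limma, against 1.16% of all miRNAs. There edgeR and DESeq2 on recovered reads each called 2, against 2.66% and 2.98% of the miRNAs they tested. The test was limma on log2(normalized reads + 1) with Benjamini-Hochberg adjusted p under 0.05 over all miRNAs tested, two-sided, and a fold change on this scale understates the change of scarce sequences. The libraries are whole petals, in which fewer cells of a type and less RNA per cell cannot be told apart.

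**Figure D1:**
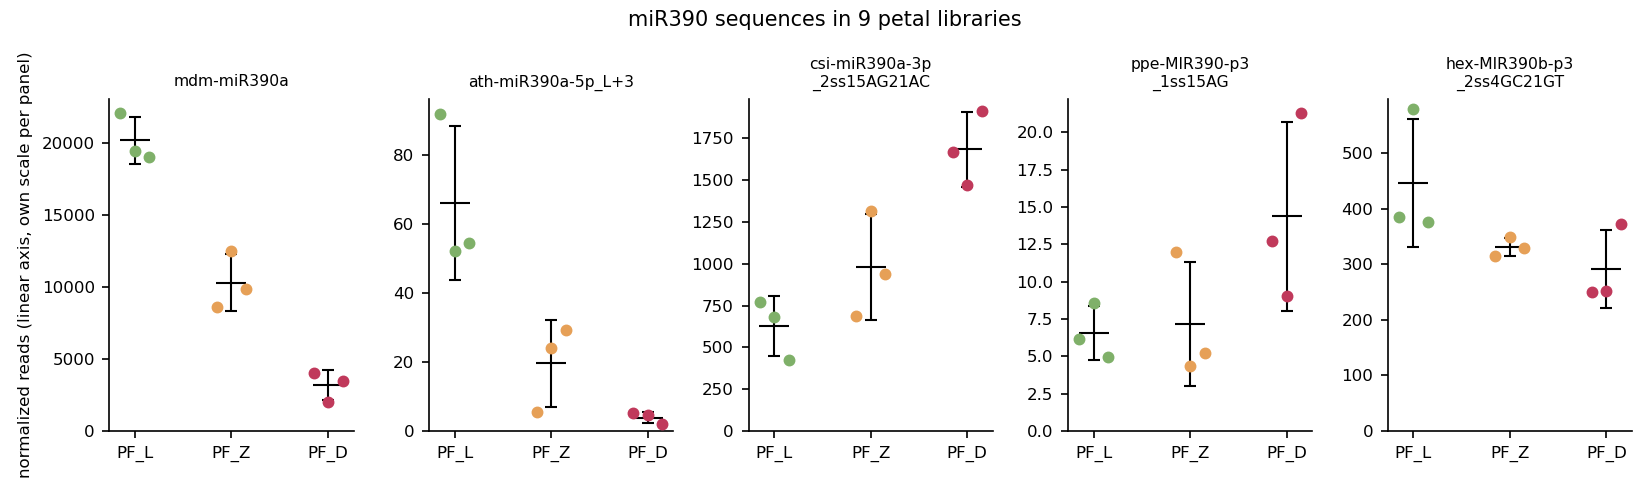
Normalized reads (linear axis, each panel with its own scale) of the 5 miR390 sequences in the 3 libraries of each stage, with points for libraries, the horizontal line for the mean and the bar for 1 SD. The guide mdm-miR390a lies between 2044 and 4064 in PF_D and between 19071 and 22073 in PF_L, while csi-miR390a-3p_2ss15AG21AC lies between 1468 and 1910 in PF_D and between 426 and 772 in PF_L.

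The guide mdm-miR390a had 25023, 27227 and 23124 reads in the 3 PF_L libraries, 7917, 11454 and 9378 in PF_Z, and 3189, 1811 and 3249 in PF_D. No library of one stage overlapped with those of another, and the PF_D libraries were the lowest. It ranked 7 among all distinct sequences in every PF_L library, 11 to 17 in PF_Z and 27 to 33 in PF_D. Its share of all recovered miRNA reads was 1.88% to 2.37% at PF_L, 0.718% to 1.39% at PF_Z and 0.164% to 0.331% at PF_D. In PF_D relative to PF_L it fell by 2.72 on the log2 scale (SE 0.26, limma adjusted p = 1.33e-06), and relative to PF_Z it fell by 1.73 (SE 0.26, limma adjusted p = 5.58e-04). The change between PF_Z and PF_L was -0.98 (SE 0.26), which limma did not call (adjusted p = 0.0793), although both count tools did (edgeR adjusted p = 0.0293, DESeq2 adjusted p = 0.00929), as did limma without PF_D replicate 2 (adjusted p = 0.0471). With PF_D and PF_Z fitted alone, the difference between them was not called (limma adjusted p = 0.0644).

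The longer 5p form, ath-miR390a-5p_L+3, was scarce and, like the guide, lowest in PF_D. It had 104, 73 and 66 reads at PF_L, 5, 22 and 28 at PF_Z, and 4, 4 and 2 at PF_D. Its stages did not overlap in normalized reads. The PF_D libraries lay around 3 reads, the limit that a count of 0 allows, and PF_D replicate 3 lay below it, so the size of a change against PF_D is uncertain. In PF_D relative to PF_L it fell by 3.78 on the log2 scale (SE 0.52, limma adjusted p = 6.53e-05). The changes of -1.93 between PF_Z and PF_L (limma adjusted p = 0.0834) and -1.84 between PF_D and PF_Z (limma adjusted p = 0.0584) missed the threshold. Leaving out PF_Z replicate 3, with 28 reads, moved the first of these to -2.36 (adjusted p = 0.0331). Leaving out PF_Z replicate 1, with 5 reads, moved it to -1.24 (adjusted p = 0.226) and the other to -2.54 (adjusted p = 0.00303). Both count tools called both changes. The form made up 0.267% to 0.414% of the 5p reads at PF_L, 0.0631% to 0.298% at PF_Z and 0.0615% to 0.220% at PF_D, where the lowest share rests on 2 reads (95% Wilson interval 0.0169% to 0.224%). No difference of its ratio to the guide between the stages was detected (exact permutation test over 1680 assignments of the 9 libraries, p = 0.2).

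The main 3p sequence, csi-miR390a-3p_2ss15AG21AC, had 772, 678 and 426 normalized reads at PF_L, 685, 1317 and 936 at PF_Z, and 1668, 1468 and 1910 at PF_D. Every PF_D library was above every library of the other stages, while PF_Z and PF_L overlapped. It rose in PF_D relative to PF_L by 1.46 on the log2 scale (SE 0.28, limma adjusted p = 0.00169). The steps of 0.64 between PF_Z and PF_L (adjusted p = 0.316) and 0.82 between PF_D and PF_Z (adjusted p = 0.110) did not pass in limma, although the step between PF_D and PF_Z did with libraries scaled to their valid reads (1.12, adjusted p = 0.0389). Its rank among distinct sequences was 52 to 69 at PF_L, 43 to 62 at PF_Z and 40 to 47 at PF_D.

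The other 3p sequence that pairs with the guide, ppe-MIR390-p3_1ss15AG, was rare. It had 7, 12 and 6 reads at PF_L, 11, 4 and 5 at PF_Z, and 10, 8 and 20 at PF_D. In normalized reads, PF_D was above PF_L in every library, with 12.7, 9.03 and 21.3 in PF_D against 6.17, 8.56 and 4.95 in PF_L. The difference of 0.97 on the log2 scale (SE 0.48) was not called (limma adjusted p = 0.173) except with libraries scaled to their valid reads (1.48, adjusted p = 0.0437), nor were the steps of 0.03 between PF_Z and PF_L and 0.94 between PF_D and PF_Z. Of the reads of the 2 pairing 3p sequences it made up 1.06% ± 0.238 in PF_L petals, 0.868% ± 0.743 at PF_Z and 0.824% ± 0.253 at PF_D (SD, n = 3 each).

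The sequence with the 5′ end of the guide inside it, hex-MIR390b-p3_2ss4GC21GT, had 385, 580 and 376 normalized reads at PF_L, 315, 349 and 330 at PF_Z, and 250, 253 and 372 at PF_D. PF_L libraries were above the others without overlap, though by a narrow margin, while PF_D and PF_Z overlapped. None of its 3 changes was called by limma, at -0.40 between PF_Z and PF_L (adjusted p = 0.504), -0.61 between PF_D and PF_L (adjusted p = 0.111) and -0.21 between PF_D and PF_Z (adjusted p = 0.719). With all libraries scaled to an equal total, the change between PF_D and PF_L was -1.02 and was called (limma adjusted p = 0.0197). For every 100 reads of the guide there were 1.74 to 2.99 reads of this sequence at PF_L, 2.79 to 3.66 at PF_Z and 6.15 to 12.4 at PF_D. That ratio differed between the stages (exact permutation test, p = 0.00714). After Benjamini-Hochberg adjustment over 3 ratios, the 2 to the guide and that of the arms, the permutation p was 0.0107. From PF_L to PF_D the mean of the guide fell 6.33-fold and that of this sequence 1.53-fold. The rise of the ratio therefore rests mainly on the fall of the guide.

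Summed over its members, the family had 21334 ± 1773 normalized reads at PF_L, 11645 ± 2313 at PF_Z and 5182 ± 1221 at PF_D (SD, n = 3 each). The guide made up 93.6% to 95.7% of the family's reads at PF_L, 88.0% to 89.4% at PF_Z and 54.1% to 67.7% at PF_D. The share of csi-miR390a-3p_2ss15AG21AC was 2.14% to 3.31% in PF_L petals, 7.12% to 9.29% at PF_Z and 27.8% to 38.9% at PF_D.

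The balance between the arms shifted towards the 3p arm at each stage. Taken by name, the 3p arm held 4.98%, 6.11% and 4.05% of the reads of both arms at PF_L, 10.5%, 11.8% and 11.4% at PF_Z, and 32.2%, 45.8% and 39.9% at PF_D. Without hex-MIR390b-p3_2ss4GC21GT the shares were 3.39%, 3.41% and 2.21% at PF_L, 7.49%, 9.56% and 8.71% at PF_Z, and 29.2%, 41.9% and 35.8% at PF_D. The stages did not overlap in either case, and the 95% Wilson intervals without that sequence ran from 2.03% to 3.63% over the PF_L libraries, 6.95% to 10.1% over PF_Z and 27.9% to 43.6% over PF_D. These intervals cover counting error only, as reads carry no molecular identifiers, and a share counts reads and not molecules. On average there were 19.4 ± 4.17 reads of the 5p arm per read of the 3p arm at PF_L, 7.92 ± 0.529 at PF_Z and 1.60 ± 0.469 at PF_D (SD, n = 3 each). Without hex-MIR390b-p3_2ss4GC21GT there were 33.7 ± 9.19 in PF_L petals, 10.8 ± 1.47 at PF_Z and 1.87 ± 0.521 at PF_D. An exact permutation test of the log ratio over the 3 stages gave p = 0.00357, the smallest that 1680 assignments can give, both with and without that sequence. Adjusted over this ratio with it and the 2 ratios to the guide, the permutation p with it was 0.0107. The test without it was left out of that adjustment. So was a test with only the most abundant sequence of each arm (exact permutation p = 0.00357).

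**Figure D2:**
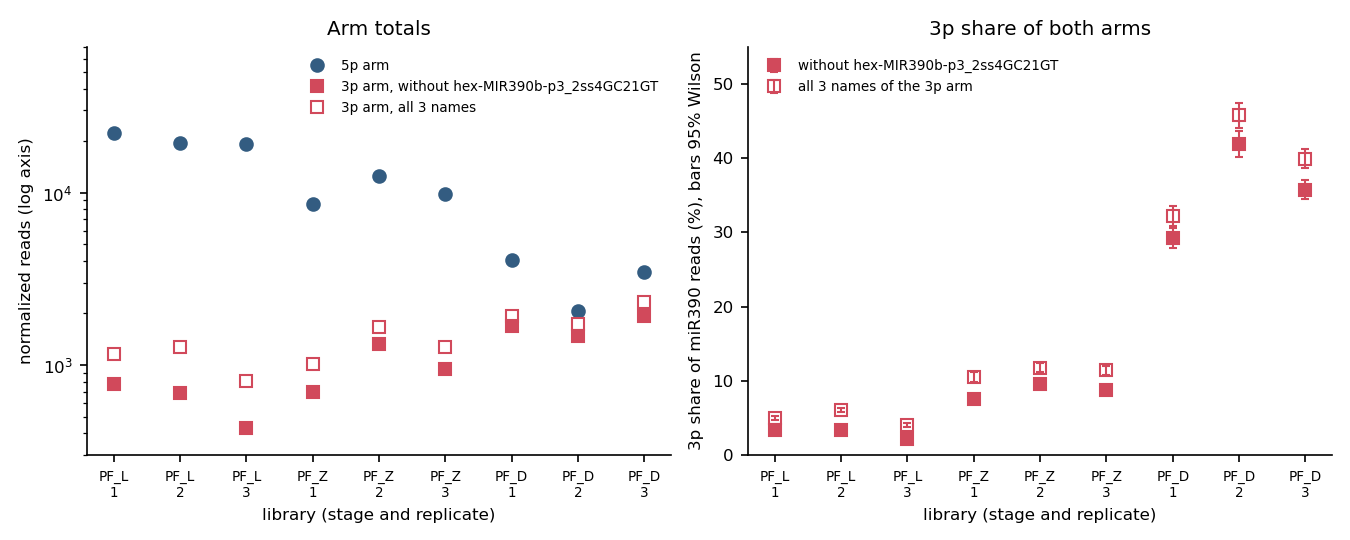
Left, normalized reads (log axis) of the miR390 5p arm and 3p arm in each library, and right, the 3p share of the reads of both arms in percent with 95% Wilson intervals, with filled squares leaving out hex-MIR390b-p3_2ss4GC21GT and open squares holding all 3 names of the 3p arm. The 5p total exceeds the 3p total in every library, and the share is 29.2% to 41.9% in PF_D and 2.21% to 3.41% in PF_L for the filled squares.

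The arm totals were tested beside those of all other families, 171 totals in all. The miR390 5p total was 4069, 2048 and 3465 normalized reads in PF_D against 22165, 19474 and 19126 in PF_L, and fell by 2.72 on the log2 scale (SE 0.26, limma adjusted p = 1.59e-04), where 29.2% of all arm totals were called. Against PF_Z, with 8611, 12498 and 9872, it fell by 1.73 in PF_D (SE 0.26, limma adjusted p = 0.00398), where 10.5% were called. In PF_Z relative to PF_L its change was -0.99 (SE 0.26, limma adjusted p = 0.0583), where 5.85% were called. That step was called with PF_Z and PF_L fitted alone (adjusted p = 0.0481), without PF_D replicate 1 (0.0471), without PF_D replicate 2 (0.0273) and by DESeq2 (0.00815).

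The 3p total was 1931, 1730 and 2303 normalized reads in PF_D against 1163, 1267 and 807 in PF_L. It rose by 0.90 on the log2 scale (SE 0.25, limma adjusted p = 0.0244). The rise was not called with all libraries scaled to an equal total (0.48, adjusted p = 0.310), nor without PF_L replicate 3 (0.70, adjusted p = 0.0892), PF_D replicate 1 (0.91, adjusted p = 0.0559) or PF_D replicate 3 (0.79, adjusted p = 0.0910). Without hex-MIR390b-p3_2ss4GC21GT it was 1.46 (SE 0.29, limma adjusted p = 0.00627). The changes of the 3p total between PF_Z and PF_L (0.28, adjusted p = 0.541) and between PF_D and PF_Z (0.61, adjusted p = 0.166) were not called by limma. Nor were they without that sequence, at 0.64 between PF_Z and PF_L (limma adjusted p = 0.241) and 0.82 between PF_D and PF_Z (limma adjusted p = 0.105).

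The ratio of the arms is taken within a library, so the scaling of libraries does not enter it except through the pseudocount. The 3p/5p ratio of miR390 rose by 3.62 on the log2 scale in PF_D relative to PF_L (SE 0.29, limma adjusted p = 2.35e-05) and by 2.35 relative to PF_Z (SE 0.29, limma adjusted p = 9.42e-04). The first change lay between 3.42 and 3.84 whichever library was left out, and was 4.18 without hex-MIR390b-p3_2ss4GC21GT (adjusted p = 9.72e-06). Without it the rise relative to PF_Z was 2.56 (limma adjusted p = 6.76e-04). Between PF_Z and PF_L the ratio rose by 1.27 (SE 0.29, limma adjusted p = 0.0453), and by 1.62 without that sequence (adjusted p = 0.0129). This step was not called with all 3 names when PF_L replicate 1 (adjusted p = 0.102), PF_L replicate 3 (0.125), PF_Z replicate 2 (0.0934), PF_Z replicate 3 (0.0514), PF_D replicate 2 (0.0522) or PF_D replicate 3 (0.0760) was left out, at values of 1.11 to 1.27.

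Of the 51 families with both arms in the table, 9 had a called change of this ratio between PF_D and PF_L, which is 17.6%, with 2 higher and 7 lower in PF_D. The shares called were 9.8% between PF_D and PF_Z and 5.88% between PF_Z and PF_L. The miR390 change was the largest of the 51 upward between PF_D and PF_L, where the median over the families was -0.09. It ranked 2 of 51 upward between PF_D and PF_Z and between PF_Z and PF_L. It ranked 1 of 17 in all 3 comparisons when families needed a mean of at least 50 normalized reads on both arms. These ranks were the same without hex-MIR390b-p3_2ss4GC21GT. Arms of other families come from the names or from the closest named sequence and are wrong in places. The families described next are therefore mostly those 17, with values only where the arms could be told. A few families outside the 17 are given with that said. Leaving out sequences more than 5 edits from a sequence with a named arm gave 10 called families of 51, and miR390 stayed first between PF_D and PF_L.

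miR171, which targets GRAS transcription factors of the HAIRY MERISTEM group, was the other family with a called rise. Its 5p total was 4986 ± 517 normalized reads in PF_D against 9896 ± 1898 in PF_L, its 3p total 201810 ± 9980 in PF_D against 91899 ± 1093 in PF_L, and its ratio rose by 2.11 on the log2 scale (SE 0.29, limma adjusted p = 6.87e-04). Among the 17 families, the largest changes in the other direction were those of miR394 (-2.55, limma adjusted p = 6.87e-04), whose target is a leaf curling F-box gene, and miR396 (-2.44, limma adjusted p = 8.85e-04), which targets growth-regulating factors. The ratio also changed by -1.90 for miR156, which targets SPL transcription factors (limma adjusted p = 0.00356), by -1.37 for miR398, which targets copper/zinc superoxide dismutases (limma adjusted p = 0.0184), and by -1.35 for miR160 (limma adjusted p = 0.00488). The other 2 called families, miR11010 and miR8175, were under that mean, and their ratios changed by -1.69 (limma adjusted p = 0.00950) and -1.56 (limma adjusted p = 0.0135). Among the 17, miR482, miR159 and miR166 came next in the upward direction and did not pass the test, with changes of 0.32 for miR482 and 0.25 for miR166. Over all 51 families, miR858 (1.58), miR535 (1.48) and miR6275 (1.39) followed miR171, and none of these was called. These families did not reach a mean of 50 normalized reads on both arms. The 3p arm of miR858 averaged 5.04, the 5p arm of miR535 0.613, and miR6275 1.42 (5p) and 1.07 (3p). Their ratios therefore rest on few reads, and their arms may be wrong.

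**Figure D3:**
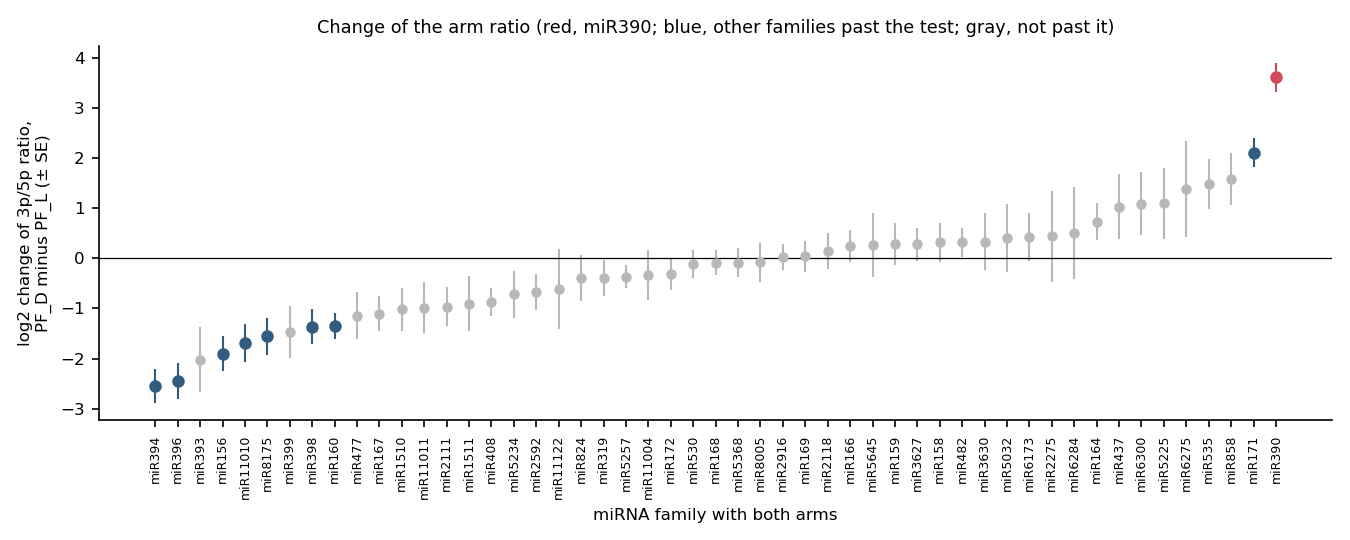
Change of the log2 ratio of the 3p total to the 5p total, PF_D minus PF_L, for each of the 51 families with both arms, with points for the limma estimate, bars for 1 SE and colors for miR390 (red), other called families (blue) and families not called (gray). miR390 stands at 3.62 and the next family, miR171, at 2.11. The arms are those given by the names or by the closest named sequence.

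The sequences whose levels ran most like those of the 2 main strands were taken from the 166 others with a mean of at least 50, by Pearson's r of log2 levels over the 9 libraries, which all share the same 3 stages. For mdm-miR390a these were mdm-miR171j (r = 0.967), csi-miR160a-3p (0.966), osa-miR171c-5p_1ss1GA (0.960), the predicted miRNA PC-5p-4208_692 (0.945) and csi-miR160b-3p (0.915). Each of them was lowest in PF_D, as in mdm-miR171j with 493 ± 54.5 normalized reads in PF_L petals, 270 ± 49.1 at PF_Z and 105 ± 24.1 at PF_D (SD, n = 3 each). For csi-miR390a-3p_2ss15AG21AC they were ppe-miR397 (r = 0.907), mdm-miR395a_1ss20TC (0.904), mdm-miR827_1ss17GA (0.902), the predicted miRNA PC-3p-5481_553 (0.900) and csi-MIR169i-p3_2 (0.892). Of these, ppe-miR397 had 721 ± 48.5 normalized reads in PF_L petals, 995 ± 215 at PF_Z and 1299 ± 226 at PF_D.

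Other families that act in auxin signaling, in making secondary small RNAs or on the silencing machinery were looked at beside miR390. In the auxin list (miR160 and miR167, which target auxin response factors, and miR393, which targets the auxin receptors), 8 of the 35 sequences tested were higher in PF_D than in PF_L, 7 were lower and 20 did not pass the test. That is 42.9% called, where 16.3% of all miRNAs were called, 8.11% higher and 8.17% lower. The sequences of each list come from only 3 families and are not independent of each other, and all miRNAs include many scarce ones. The median log2 change of the list was 0.12, against -0.28 over all miRNAs tested. mdm-miR393a_1ss22TC, the most abundant miR393 sequence, had 14279 ± 5248 normalized reads in PF_D against 702 ± 104 in PF_L and rose by 4.28 on the log2 scale (SE 0.27, limma adjusted p = 5.53e-09). It was the only one of the 3 leading sequences also called between PF_Z and PF_L (1.26, limma adjusted p = 0.0221). mdm-miR160a had 5671 ± 789 in PF_D against 10307 ± 316 in PF_L and fell by 0.87 (SE 0.22, limma adjusted p = 0.0116). mdm-miR167b had 3337 ± 512 in PF_D and 2921 ± 142 in PF_L (limma adjusted p = 0.707).

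Among other triggers of secondary small RNAs, miR482 and miR2118, which target disease resistance genes, and miR828, which targets MYB genes, were in the table. Of their 54 sequences tested, 3 were higher in PF_D than in PF_L, 5 were lower and 46 did not pass, which is 14.8% called against 16.3% of all miRNAs. Their median change was -0.15, which lies between the -0.28 over all miRNAs tested and the -0.09 over the 517 averaging 5 or more normalized reads. The leading sequences gra-MIR482-p3_1ss20TG (-0.35, SE 0.25), mdm-miR828a (0.70, SE 0.36) and mtr-MIR2118-p5_2ss3AT18TA (0.62, SE 0.29) were not called by limma. In the silencing list (miR162, which targets DICER-LIKE1, miR168, which targets ARGONAUTE1, and miR403, which targets ARGONAUTE2), none of the 11 sequences tested was higher in PF_D than in PF_L, 3 were lower and 8 did not pass, which is 27.3% called against 16.3% of all miRNAs. The median change of these 11 was -0.21, which also lies between the same -0.28 and -0.09. rco-miR162 had 4022 ± 342 normalized reads in PF_D and 4677 ± 619 in PF_L, and mdm-miR168a 21229 ± 1519 in PF_D and 15286 ± 5331 in PF_L, with neither called. htu-miR403a, among the 3 called as lower, was at 0 in all 3 PF_D libraries against 1.65 to 2.85 normalized reads in PF_L (limma adjusted p = 0.0350). It passed the filter only through PF_L and PF_Z. These are too few reads for a fold, and the 27.3% counts this call.

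**Figure D4:**
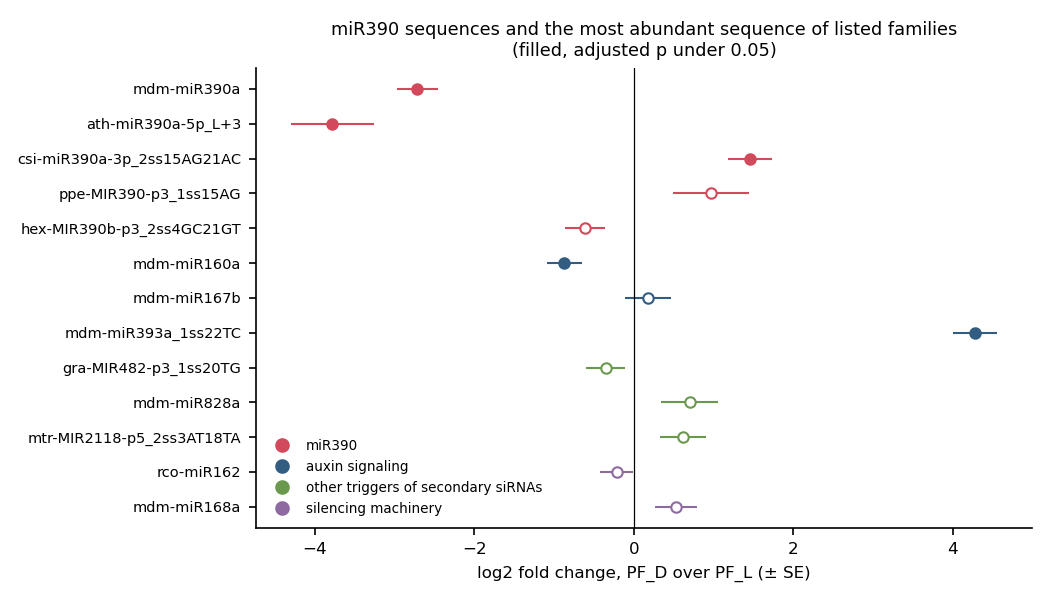
Log2 change in PF_D relative to PF_L of the 5 miR390 sequences (red) and of the most abundant sequence of each listed family with a mean of at least 5 normalized reads (auxin signaling, blue; other triggers of secondary siRNAs, green; silencing machinery, purple), with bars for 1 SE and filled points for limma adjusted p under 0.05. mdm-miR390a stands at -2.72, csi-miR390a-3p_2ss15AG21AC at 1.46 and mdm-miR393a_1ss22TC at 4.28.

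The scaling of the libraries moved all changes together. Between PF_D and PF_L, the median log2 change over 517 miRNAs averaging 5 or more normalized reads was -0.09 in the deposited values, -0.48 with equal library totals and 0.44 with libraries scaled to their valid reads. Of the called miRNAs, 126 were higher and 127 lower in PF_D in the deposited values, against 82 higher and 184 lower with equal totals and 227 higher and 62 lower with valid reads. Relative to those medians, mdm-miR390a stood at -2.65 with equal totals and -2.56 with valid reads, and csi-miR390a-3p_2ss15AG21AC at 1.53 with equal totals and 1.61 with valid reads. Both stayed called, and kept their direction, under every one of the 20 alternatives run for this comparison.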

How the data were processed

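The deposited table gives the signal per miRNA and library as the normalized read count of the authors, in 1 column per library. Per the study's methods, small RNA was sequenced as single-end reads on a HiSeq instrument, the ACGT101-miR pipeline removed adapters, junk and common RNA families, and sequences of 18 to 25 nt were compared with miRBase precursors and the Fragaria vesca genome. The formula of the normalization is not given in the sources used here. Of 1876 lines, 173 that repeat another were left out. The most common value above 0 of a library was taken as 1 read, after which 69.1% to 72.2% of the values were whole and 98.3% to 99.4% multiples of 0.5 read (within 0.01 read). For the count tests, values that were not whole were rounded to whole reads. These tests called 41 (edgeR) and 46 (DESeq2) miRNAs between PF_Z and PF_L, 250 and 153 between PF_D and PF_L, and 58 and 67 between PF_D and PF_Z.

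A miRNA was tested if 3 or more libraries had a value above 0 (1554 miRNAs), with limma 3.58.1 (R 4.3.3; trended prior, all 9 libraries in 1 fit, pseudocount 1) and adjusted by Benjamini-Hochberg. limma took the place of the Student's test of the study's methods. It uses 1 estimate of the spread per miRNA over all 3 stages and draws it towards the trend across miRNAs. The same fit was run on 171 arm totals of families and on the arm ratio of 51 families. A name that gives no arm took the arm of the closest sequence of its family, which placed some families on an arm far from any sequence with a named arm; the lists are therefore given by sequence and not by arm. Duplexes were predicted with ViennaRNA 2.7.2. Other tools were edgeR 4.0.16, DESeq2 1.42.0, Python 3.11.15, scipy 1.17.1, numpy 2.4.6, matplotlib 3.10.9 and pandas 2.3.3.

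Named were all miR390 sequences, the most abundant sequence of each listed family, the 5 sequences most like each main strand, and the 5 families with the largest change of arm ratio in each direction among those with a mean of at least 50 on both arms. miR11010, miR8175, miR858, miR535 and miR6275 were added after their values were seen. The members, lists and tests were chosen with earlier results of these data known. miR173 and miR7122, also on the list of triggers, had no entry under these names. Valid reads per library, used for 1 scaling, came from the study's supplementary table. Alternatives covered the pseudocount, the filter, library scaling, count tools, which stages were fitted, a replicate block, how sequences were summed into arms, and leaving out each library. Leaving out hex-MIR390b-p3_2ss4GC21GT and limiting the arm assignment to 5 edits were chosen after seeing the data. Degradome and mRNA data were not analysed here.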

Additional observations from a re-analysis of the deposited data

How the results depend on the processing

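Between PF_D and PF_L, the fall of the 5p total and of mdm-miR390a, the rise of csi-miR390a-3p_2ss15AG21AC and of the 3p/5p ratio kept their direction and stayed called under every alternative run for them. The rise of the 3p total was lost with equal library totals (0.48) and ranged from 0.70 to 1.03 over the left-out libraries. Between PF_Z and PF_L, the rise of the ratio was 1.27 but not called with no filter (adjusted p = 0.0533) or with PF_Z and PF_L fitted alone (adjusted p = 0.0916), and 1.11 to 1.43 over the left-out libraries. The 5p total became called there with those stages alone (-0.99) and with DESeq2 (-0.98), and was -1.13 to -0.86 over the left-out libraries. The number of called miR390 sequences between PF_Z and PF_L, 0 as reported, was 1 with a pseudocount of 5. It was 2 with edgeR, 2 with DESeq2 and 0 to 1 over the left-out libraries. Of all miRNAs, 20 of 1554 were called there with a pseudocount of 5, 2.66% with edgeR and 2.98% with DESeq2. Between PF_D and PF_Z, 1 as reported, the number of called miR390 sequences was 2 with equal totals, with valid reads, with edgeR and with DESeq2. It was 0 with those stages alone and 1 to 2 over the left-out libraries. Of all miRNAs, 53 of 1554 were called there with equal totals, 81 of 1554 with valid reads, 3.76% with edgeR and 4.34% with DESeq2. ppe-MIR390-p3_1ss15AG changed sign between PF_Z and PF_L with median-of-ratios scaling (-0.0044) and over the left-out libraries (-0.36 to 0.28), and DESeq2 gave it no adjusted p there. hex-MIR390b-p3_2ss4GC21GT changed sign between PF_D and PF_Z with valid reads (0.094). All miRNAs called numbered 18 between PF_Z and PF_L, against 11 with those stages alone and 10 to 35 over the left-out libraries; 253 between PF_D and PF_L, against 153 with DESeq2 and 130 to 278; and 57 between PF_D and PF_Z, against 18 with those stages alone and 29 to 69. The cause of these shifts was not tested. Replicate numbers gave no sign of pairing. Deviations of same-numbered libraries correlated at -0.10 to 0.28 (9 pairs), and those of libraries with other numbers at -0.26 to 0.30 (18 pairs). With 3 libraries per stage these values cannot settle whether libraries were paired. With a replicate block, 0 miR390 sequences were called between PF_Z and PF_L, where 21 of all 1554 miRNAs were called. Between PF_D and PF_L 3 were called, where 265 of all miRNAs were. Between PF_D and PF_Z 1 was called, where all miRNAs called numbered 18 to 81 over the alternatives run. With the block the 3p/5p ratio rose by 1.27, 3.62 and 2.35 in these comparisons, in the same order (limma adjusted p = 0.0269, 1.62e-04 and 0.00162). Scaling alternatives and count tools were not run on the ratio, where the library factor cancels. Sequences with a few reads, ppe-MIR390-p3_1ss15AG and ath-miR390a-5p_L+3 in PF_D, are limited by depth.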
